A study of Mus musculus with 8 samples.

Results

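Slc19a2 and Thtpa, a pair of genes of thiamine uptake and thiamine phosphate metabolism, were read out in mouse chondrocytes that had received a miR-204 mimic. They were chosen by name, with earlier results of these data known, and are 2 of the 24067 genes in the deposited table. Both gene symbols were found in it once. The cells were primary articular chondrocytes from the femoral and tibial joint surfaces of ICR mice aged 5 days, kept at 3% oxygen. One group of 4 libraries received 50 nM of miR-204 for 24 h and the other group of 4 received 50 nM of the control small RNA, miR-Ctrl. Cells were harvested 24 h after transfection ended, and the groups differed in no other labelled respect. The mature microRNA itself is not measured by the table. Nothing in the labels says whether the replicates came from separate animals or cultures, so the spread between them may be technical.

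Thiamine, vitamin B1, cannot be made by animal cells and enters them through carriers of the SLC19 family. Inside the cell it is turned into thiamine diphosphate, the cofactor of transketolase and of the dehydrogenase complexes that feed pyruvate, 2-oxoglutarate and branched-chain keto acids into mitochondrial oxidation. Slc19a2 encodes a high-affinity thiamine carrier of the plasma membrane, whose loss in humans causes thiamine-responsive megaloblastic anaemia. Thtpa encodes thiamine triphosphatase, a small cytosolic enzyme that hydrolyses thiamine triphosphate to the diphosphate.

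A microRNA mainly lowers transcripts whose 3′ UTR matches its seed, bases 2 to 8, so the sequences of miR-204-5p and of the matches in the genes described here are shown first. The seed of the microRNA is in capitals, and so is the matching stretch of each transcript. The microRNA sequence is RefSeq's for build GRCm38.p6, and the transcript stretches are GENCODE M21 transcripts on the same assembly, written 5′ to 3′.
miR-204-5p: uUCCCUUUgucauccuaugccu
Thtpa 8mer: ttcactttccaAAAGGGAAggtaactctga
Thtpa 6mer: aggaactccttAAGGGAtctagaaattc
Slc19a3 6mer: ttcacagtttgAAGGGAtacattccatt

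An 8mer, AAAGGGAA, pairs with the whole seed and has an A opposite the first base of the microRNA. A 7mer-m8 is AAAGGGA, a 7mer-A1 is AAGGGAA and a 6mer is AAGGGA. Each match was searched on the transcript strand and counted once, as its longest class. Thtpa (gene ID 105663; mm10, chromosome 14, 55094784 to 55098986, plus strand) held the 8mer at chr14:55097527-55097534, in the 3′ UTR part of its last exon. It began at base 20 of a 3′ UTR of 1479 bases. The 6mer of Thtpa lay at chr14:55097958-55097963. Slc19a2 (gene ID 116914; chromosome 1, 164249046 to 164265385, plus strand) held no match of any class in its 3′ UTR of 1867 bases, nor in the 3′ UTR of its other annotated coding transcript. Of 11192 tested genes with an annotated 3′ UTR, 6.93% had an 8mer as their best match and 63.1% had none.

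**Figure D1:**
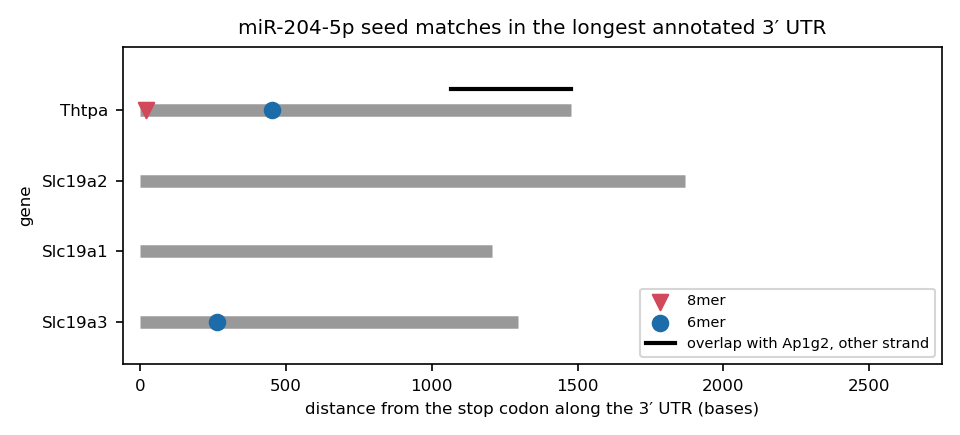
Seed matches of miR-204-5p along the longest annotated 3′ UTR of Thtpa, Slc19a2 and 2 related carrier genes, by distance from the stop codon in bases. Thtpa has an 8mer at base 20 and a 6mer at base 451, and its last 412 bases overlap Ap1g2 on the other strand, while the bars of Slc19a2 and Slc19a1 carry no match.

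Levels are FPKM, a count of fragments scaled by transcript length and by the size of the library. The libraries held between 11184 and 11647 genes at 1 FPKM or more. Read totals are not given. Steps between low FPKM values put the depth of miR-Ctrl replicate 2 at 0.773 and that of miR-204 replicate 2 at 0.798 of miR-Ctrl replicate 1, and the other libraries at 0.929 to 0.963. The replicate 2 libraries also stood apart in content: both lay above the other 6 libraries in 30.5% of 11612 tested genes and below them in 8.98%. The label of chondrocytes was met, with all 7 chondrocyte markers above a mean of 1 FPKM. Their summed level was 9940 to 33261 FPKM with miR-Ctrl and 9775 to 25740 with miR-204, lowest in replicate 2 of each group. It was mostly Col2a1, at 7836 to 27531 FPKM over the 8 libraries, so the sum says little about the other markers. The 5 fibroblast markers, led by Col1a1 and Col1a2, were also abundant, at a sum of 1562 to 3310 FPKM with miR-Ctrl and of 1502 to 3458 with miR-204. The 4 osteoblast markers summed to 5.22 to 22.8 FPKM with miR-Ctrl and to 7.05 to 23.6 with miR-204. The sum was highest in replicate 2 of each group, mainly through Ibsp, at 12.1 and 14.3 FPKM there and at most 3.57 elsewhere. Bglap was also highest there in each group, but Sp7 was lowest of all 8 libraries in miR-Ctrl replicate 2 (1.47 FPKM). In miR-204 replicate 2, Sp7 was at 2.16 FPKM, within the range of the other libraries of its group. The 5 macrophage markers summed to 3.20 to 12.3 FPKM with miR-Ctrl and to 8.54 to 16.0 with miR-204, where 2 of 5 (Cd68 and Lyz2) reached a mean of 1 FPKM and the leukocyte marker Ptprc stayed at or below 0.0309. The 4 skeletal muscle markers, mostly Acta1, summed to 0.854 to 4.78 FPKM with miR-Ctrl and to 2.85 to 8.41 with miR-204. The 4 endothelial markers summed to at most 0.419 FPKM. The part of other cells in the results below was not tested. In bulk RNA, more cells of a kind and more RNA per cell cannot be told apart.

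Slc19a2 was higher in every miR-204 library than in any miR-Ctrl library. Its level was 9.89, 11.2, 9.77 and 11.1 FPKM in miR-Ctrl replicates 1 to 4 and 13.6, 14.9, 13.4 and 15.6 FPKM in miR-204 replicates 1 to 4. The groups did not overlap, and the replicates kept their order by pairs: replicates 2 and 4 were the higher ones in each group. The means were 10.5 ± 0.779 and 14.4 ± 1.07 FPKM (SD, n = 4 each), a ratio of 1.37. Within equal replicate numbers the ratios were 1.37, 1.32, 1.37 and 1.41. On the log2(FPKM + 1) scale, which understates changes of low genes, the difference was 0.42 ± 0.073 (SE), and it stayed between 0.38 and 0.45 when any single library was left out. Of all tested genes, 97.3% had a lower difference, and the median of all was 0.064. Slc19a2 was chosen with this difference known, so it is given as a description.

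Thtpa differed by less than the spread between its libraries. It was at 10.1, 8.73, 10.3 and 9.46 FPKM with miR-Ctrl and at 8.90, 9.11, 9.45 and 9.35 FPKM with miR-204. The miR-204 values all fell inside the range of the miR-Ctrl values. The means were 9.65 ± 0.704 and 9.20 ± 0.245 FPKM (SD, n = 4 each), a ratio of 0.954, and the difference was −0.059 ± 0.061 (SE) on the log2(FPKM + 1) scale. The ratio within pairs was 0.881, 1.04, 0.918 and 0.988, so that 1 of 4 pairs went the other way. As a range without any single library, the difference was −0.10 to −0.030. Relative to Thtpa, the level of Slc19a2 went from 0.949 to 1.29 times with miR-Ctrl to 1.42 to 1.67 times with miR-204.

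**Figure D2:**
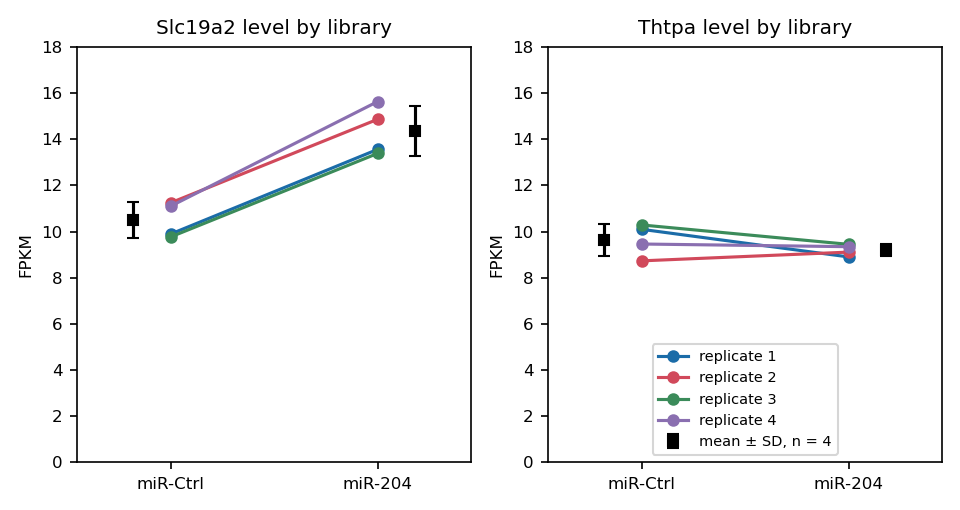
FPKM of Slc19a2 and Thtpa in the 8 libraries, with lines joining libraries of equal replicate number and squares for the group mean ± SD (n = 4). The 4 lines of Slc19a2 run from 9.77 to 11.2 FPKM on the left to 13.4 to 15.6 FPKM on the right, and those of Thtpa stay between 8.73 and 10.3 FPKM.

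Without the replicate number in the fit and with FPKM as deposited, 0 of the 2 genes passed limma's threshold of 0.05 (Benjamini-Hochberg), where 0.207% of all tested genes were called (0.0258% higher and 0.181% lower). With libraries centred on their median, the fit without the replicate number did call Slc19a2 higher, as it did 0.0689% of tested genes, and it called 0.474% lower but not Thtpa. With the replicate number as a block, Slc19a2 was among the genes called higher, as were 12.4% of all tested genes, and Thtpa was not called, where 2.83% of tested genes were called lower (15.2% in either direction). The call of Slc19a2 was also made with the block and centred libraries, at a difference of 0.35, with 4.99% of genes called higher, 4.32% lower and 9.31% in either direction. With the block and without replicates 1, 2, 3 and 4 in turn, Slc19a2 was called higher each time, where 1.18%, 24.5%, 2.27% and 0.76% of tested genes were. The choice of Slc19a2 used this contrast, so nothing is read from these calls. Its groups did not overlap upwards, which held for 4.32% of tested genes (1.58% downwards), and its difference was above 0 in all 4 pairs, which held for 33.9% (below 0 for 7.44%).

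The spread and level of the members are described next. Slc19a2 was chosen with its contrast known, and such a choice can favour a small spread. Its rank by spread is therefore not independent of the choice. With miR-Ctrl, the coefficient of variation was 7.42% for Slc19a2 and 7.30% for Thtpa. A lower value was found in 25.6% and 24.8% of tested genes, which is given as a description. By mean over the 8 libraries, Slc19a2 lay above 58.9% and Thtpa above 50.5% of tested genes. For neither gene did both replicate 2 libraries lie beyond the other 6. Still, miR-Ctrl replicate 2 was the highest miR-Ctrl library for Slc19a2 (11.2 FPKM) and the lowest of all 8 for Thtpa (8.73 FPKM).

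The 8mer of Thtpa can be set beside all tested genes with an 8mer. These 776 genes had a median difference of −0.0054, with quartiles of −0.13 and 0.080, and 17.5% of them were lower in the fit with the replicate block. Thtpa, at −0.059, lay between those quartiles, and 60.7% of 8mer genes had a higher difference. Its 8mer was among the 22 whose first 8mer began within 50 bases of the stop codon, a limit chosen after the position was seen. Of these 22 genes, 3 (13.6%) were lower with the block, against 133 of the other 754 (17.6%), and the medians were −0.046 and −0.0052. The difference between these sets was not tested. Among the 7064 genes with no match, the median was 0.078, and 3.31% had a higher difference than Slc19a2, which was chosen with its difference known.

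**Figure D3:**
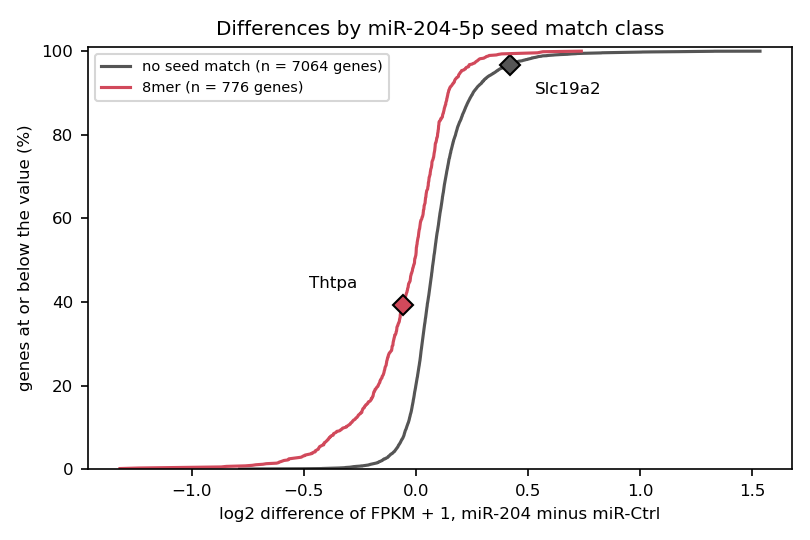
Share of tested genes (%) at or below each log2 difference of FPKM + 1, miR-204 minus miR-Ctrl, for the 776 genes with an 8mer and the 7064 with no seed match. Thtpa, at −0.059, sits in the middle part of the 8mer curve, and Slc19a2, at 0.42, near the upper end of the curve of genes with no match.

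The exons of Thtpa are shared with other genes. In its last 412 bases, chromosome 14 55098575 to 55098986, they overlap Ap1g2, a clathrin adaptor subunit gene on the minus strand, and 1607 of its 2830 exon bases are shared with Gm20687, a GENCODE gene on the same strand that has no row of its own. Ap1g2 was at 1.72 to 3.68 FPKM with miR-Ctrl and at 2.19 to 3.46 with miR-204, below Thtpa in every library. The library kit keeps strand, but no source used here says whether the quantification used it, so reads of the shared bases may have been counted for either gene. Slc19a2 shared exon bases with no annotated gene.

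The other carriers were compared next, since Slc19a2 is 1 of several routes for thiamine. FPKM is per length, so levels of these genes can be set side by side. Slc19a3 encodes the other thiamine carrier of the family. It was much lower, at 1.59, 1.75, 1.75 and 1.69 FPKM with miR-Ctrl and 1.50, 2.46, 2.52 and 2.07 with miR-204. Slc19a2 held 84.8% to 86.8% of the summed FPKM of both carriers with miR-Ctrl and 84.2% to 90.1% with miR-204, ranges that overlap. The difference of Slc19a3 was 0.20 ± 0.12 (SE), and it passed neither without the block (adjusted p = 0.672, limma) nor with it (adjusted p = 0.124). In pair 1 its difference was −0.056.

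Slc19a1 encodes the reduced folate carrier, which takes up folates and phosphorylated forms of thiamine. It was at 13.1 to 16.5 FPKM with miR-Ctrl and 13.7 to 15.8 with miR-204, a difference of 0.018 ± 0.080 (SE; adjusted p = 0.982, limma) that was −0.046 with centred libraries and −0.057 with quantile normalization. In every miR-Ctrl library Slc19a1 was above Slc19a2, at a ratio of Slc19a2 to Slc19a1 of 0.646 to 0.805. With miR-204 this ratio was 0.848 to 1.14, and the levels of the 2 genes overlapped.

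Slc35f3, reported as a thiamine transporter, ranged from 0.578 to 2.46 FPKM across libraries and overlapped Slc19a3. It was lowest in both replicate 2 libraries. Its difference was 0.024 (adjusted p = 0.993, limma), and −0.040 with centred libraries. Slc44a4, a carrier of thiamine diphosphate known from the colon, and Slc47a1, an exporter of organic cations, did not exceed 0.0368 FPKM and were not tested. In miR-Ctrl libraries these carriers thus ranked Slc19a1, Slc19a2 and then Slc19a3 with Slc35f3, the last pair overlapping. None of the 3 tested carriers besides Slc19a2 was called without the block, with it or with the block and centred libraries (limma; 0 of 3 at an unadjusted p under 0.05), and their median difference was 0.024, beside 0.064 over all tested genes. Their 3′ UTRs held a 6mer in Slc19a3 and no longer match.

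**Figure D4:**
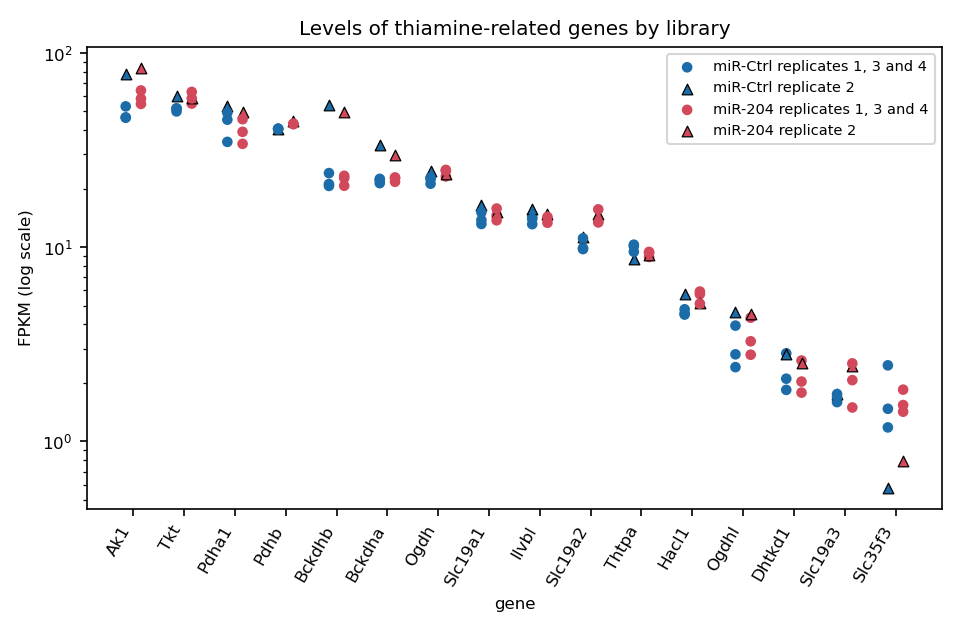
FPKM on a log scale of tested genes of thiamine transport, thiamine phosphates and thiamine-dependent enzymes, in order of their mean, with 1 point per library and triangles for replicate 2. The groups of Slc19a2 do not overlap. The triangles of Ak1, Pdha1, Ogdhl, Bckdha, Bckdhb and Ilvbl lie above the points of the other libraries in both groups, and those of Slc35f3 lie below them.

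Beside Thtpa, the genes reported for thiamine phosphates were Ak1 and Acpp. Ak1 encodes the cytosolic adenylate kinase, which can form thiamine triphosphate, the substrate of Thtpa, beside its main role in balancing adenine nucleotides. It was at 46.5, 78.0, 46.3 and 53.0 FPKM with miR-Ctrl and at 54.5, 83.5, 58.1 and 64.0 FPKM with miR-204. Replicate 2 was the highest library in each group, and the groups overlapped. Ak1 did not pass without the block (0.23 ± 0.19 SE, adjusted p = 0.799, limma). It was higher in 4 of 4 pairs and passed with the block (adjusted p = 0.0263, limma), but not with centred libraries (0.16, adjusted p = 0.05002). The block call was also lost without replicate 1, 3 or 4 (adjusted p = 0.106, 0.0932 and 0.132, limma). Without the block, leaving out replicate 2 of miR-Ctrl moved the difference of Ak1 to 0.40, leaving out replicate 2 of miR-204 to 0.10, and leaving out replicate 1 or 3 of miR-Ctrl to 0.15. Acpp encodes an acid phosphatase that can act on thiamine monophosphate. It was below the filter, at 0.792 and 0.567 FPKM in the replicate 2 libraries and at no more than 0.0768 elsewhere.

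Of 13 genes listed as enzymes that use thiamine diphosphate, 10 were tested, and 0 passed without the block in either direction (limma; 0 at an unadjusted p under 0.05). With the block 0 passed as well. Their median difference was 0.035. Transketolase, encoded by Tkt, links the pentose phosphate pathway to glycolysis. It was at 51.7, 59.8, 51.7 and 49.9 FPKM with miR-Ctrl and 54.8, 58.7, 62.9 and 58.3 with miR-204 (0.14 ± 0.073 SE, adjusted p = 0.653, limma). The groups overlapped, and 3 of 4 pairs were above 0. Tkt did not pass with the block (adjusted p = 0.137, limma) but did once replicate 2 was left out (0.19, adjusted p = 0.0290). In that fit 24.5% of all tested genes were called higher.

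Pdha1 and Pdhb encode the alpha and beta subunits of the enzyme that decarboxylates pyruvate in the pyruvate dehydrogenase complex. Pdha1 was lower in 4 of 4 pairs, at 45.2, 53.2, 34.8 and 49.1 FPKM with miR-Ctrl and 39.2, 49.7, 34.0 and 45.5 with miR-204 (−0.11 ± 0.16 SE, adjusted p = 0.892, limma). It did not pass with the block (adjusted p = 0.105, limma) but was called lower with the block and centred libraries (−0.17, adjusted p = 0.0377). Its 3′ UTR has a 7mer-A1 at base 419 and a 6mer. Pdhb was at 40.6 ± 0.135 and 43.4 ± 0.731 FPKM (SD, n = 4 each), and did not pass (0.095, adjusted p = 0.595, and 0.0929 with the block, limma). Its groups did not overlap, which held upwards for 4.32% of tested genes. With centred libraries its difference was 0.031.

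Ogdh, the corresponding subunit of the 2-oxoglutarate dehydrogenase complex, was at 22.7 ± 1.42 and 24.1 ± 0.868 FPKM. Its relatives Ogdhl and Dhtkd1 were at 3.45 ± 1.02 and 3.74 ± 0.842 FPKM and at 2.40 ± 0.504 and 2.24 ± 0.396 FPKM. Bckdha and Bckdhb, the subunits for branched-chain keto acids, had differences of −0.020 and −0.014. Hacl1, a peroxisomal lyase of fatty acid alpha-oxidation, was at 4.89 ± 0.574 and 5.48 ± 0.396 FPKM, and Ilvbl, a related lyase of the endoplasmic reticulum, at 14.3 ± 1.09 and 14.1 ± 0.595 FPKM (SD, n = 4 each). None of these 7 genes passed with or without the block (limma). Ogdh (0.13) and Hacl1 (0.23) passed with the block once replicate 2 was left out, where 24.5% of all tested genes were called higher. Tktl1 was at no more than 0.0135 FPKM, and Tktl2 and Pdha2 were listed at 0 in every library.

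In the replicate 2 libraries several of these enzymes stood higher in both groups. Bckdhb was at 53.8 and 49.7 FPKM there, against 20.6 to 24.0 FPKM in the other 6 libraries. Bckdha was at 33.4 and 29.7 FPKM, against 21.3 to 22.8. In all, 5 of the 10 tested enzymes had both replicate 2 libraries above the other 6, beside the 30.5% of all tested genes given above. Slc19a2 and Thtpa were not among the genes with this pattern.

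The enzymes' partners and regulators were counted from the same fit. Of 5 tested partner subunits of the dehydrogenase complexes, 0 passed with or without the block, with a median of −0.0035. Dld, the shared dihydrolipoyl dehydrogenase, was at 34.5 ± 1.98 and 34.6 ± 3.93 FPKM, and Dlst, the succinyltransferase of the 2-oxoglutarate complex, at 32.6 ± 3.46 and 34.0 ± 1.24 FPKM (SD, n = 4 each). Dlat, the acetyltransferase of the pyruvate complex, was named after its values were seen: it was lower in 4 of 4 pairs (−0.12) and was called only with the block and centred libraries (−0.18, adjusted p = 0.0334, limma). Of 8 tested kinases and phosphatases, 1 was higher with the block, beside 12.4% of all tested genes, so nothing is read from the count. The called gene was Bckdk, the kinase that inhibits the branched-chain complex, at 23.0 ± 0.637 and 25.5 ± 0.395 FPKM (0.14, adjusted p = 0.411 and, with the block, 0.0375, limma). Its groups did not overlap, which held upwards for 4.32% of tested genes. With centred libraries Bckdk did not pass (adjusted p = 0.180, limma), nor with the block without replicate 1, 3 or 4 (adjusted p = 0.144, 0.104 and 0.185). Of 7 pentose phosphate enzymes beside transketolase, 0 passed. Taldo1, transaldolase, was at 79.3 ± 7.46 and 76.6 ± 5.43 FPKM and Pgls, a lactonase, at 58.6 ± 4.07 and 62.8 ± 3.17 FPKM.

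Across the 6 lists around thiamine, 34 genes besides Slc19a2 and Thtpa were tested. Without the block 0 were called by limma, and 2 were higher and 0 lower at an unadjusted p under 0.05, beside 6.57% and 2.02% of all tested genes. With the block 2 were higher (Ak1 and Bckdk) and 0 lower, beside 12.4% of all tested genes called higher. Without the replicate 2 libraries the fit with the block called 10 of the 34 higher, beside 24.5% of all tested genes, and without those of replicate 1, 3 or 4 it called 0. With the block and centred libraries the split was 0 higher and 2 lower (Pdha1 and Dlat), beside 4.32% of all genes called lower. The median difference of the 34 genes was 0.037, and 20 of the 34 lay above 0, a smaller share than the 74.1% of all tested genes. The difference in share was not tested. An 8mer or 7mer was found in 8 of the 34, beside 24.0% of all tested genes with a 3′ UTR.

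**Figure D5:**
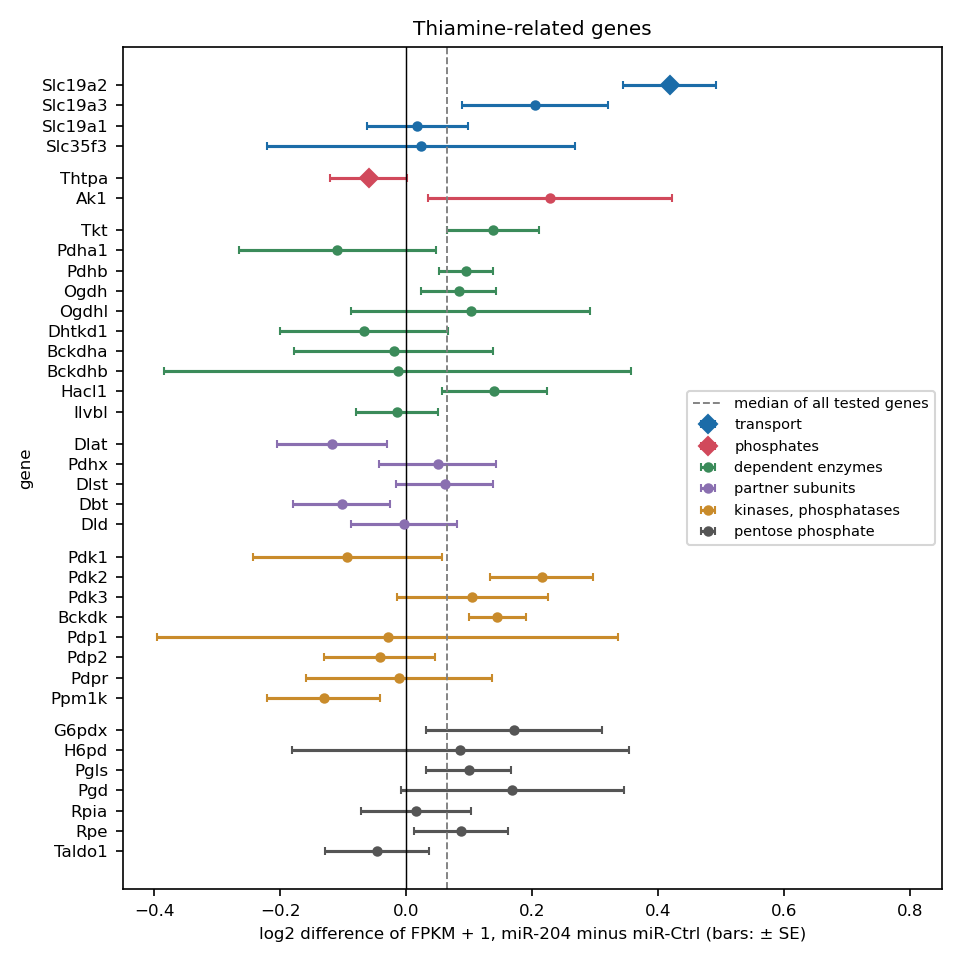
Log2 difference of FPKM + 1, miR-204 minus miR-Ctrl, with its SE for Slc19a2, Thtpa (diamonds) and 34 other tested genes around thiamine, by list. Slc19a2, at 0.42 and chosen with this difference known, lies farthest from the dashed line at 0.064, the median of all tested genes.

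Genes for uptake and activation of the other B vitamins were taken as a second point of reference. Of 28 tested genes, 0 passed without the block by limma, and 1 was higher and 0 lower at an unadjusted p under 0.05. With the block 3 were higher and 0 lower, beside 12.4% and 2.83% of all tested genes, and with the block and centred libraries 0 passed. The 3 were Naprt, which starts NAD synthesis from nicotinic acid (0.24, adjusted p = 0.0318 with the block, limma), Slc46a1, the proton-coupled folate transporter (0.20, 0.0386), and Nmrk1, nicotinamide riboside kinase (0.22, 0.0424). All 3 calls were lost with the block when replicate 1, 3 or 4 was left out. Slc46a1 has a 7mer-m8. The median difference over the 28 genes was 0.066, and the difference of Slc19a2 was larger than that of each of them. Slc19a2 was chosen with its difference known, so nothing is read from this rank.

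Of 11611 other tested genes, the 3 whose log2 levels followed Slc19a2 most closely over the 8 libraries were Dnajc16, a DnaJ chaperone family gene (Pearson's r = 0.98), Stxbp2, a syntaxin-binding protein of vesicle fusion (0.98), and Tnfrsf10b, a death receptor (0.97). They went from 6.99 to 8.44, from 10.9 to 13.1 and from 19.3 to 27.2 FPKM in mean. All 3 were called higher with the block, as were 12.4% of all tested genes. Genes picked because they follow Slc19a2 over these libraries tend to share its group difference, so nothing is read from these calls. The call was lost for Dnajc16 without replicate 1, 3 or 4 and for Stxbp2 without replicate 1 or 4. Dnajc16 has an 8mer, the others no match. Those closest to Thtpa were Sec23a, a coat protein of vesicles leaving the endoplasmic reticulum (0.94), Zfp566 (0.94) and 5430416N02Rik (0.93), of which 0 were called. These correlations are the highest of many over 8 libraries that share the contrast and the replicate pairs, and they are a description.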

How the data were processed

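The authors deposited 1 table with an FPKM value per gene and library for 8 libraries. Per the submitters' processing notes, TopHat, Cufflinks 2.2.1 and build mm10 were used. No source used here gives the mode of Cufflinks, the annotation or the version of TopHat. Per the labels' protocols, the libraries came from a stranded mRNA kit. FPKM falls when a few abundant genes take more of the fragments, and it carries no read count, so no count model was run.

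Groups and replicate numbers came from the sample titles. The members and the gene lists were chosen with earlier results of these data known. Tested were all genes whose mean over the libraries reached 1 FPKM, on log2(FPKM + 1) with limma 3.58.1 in R 4.3.3 (trended prior, Benjamini-Hochberg adjustment, threshold 0.05, two-sided), first without the replicate number and then with it as a block. Libraries of equal number deviated together: across genes, r was 0.44, 0.82, 0.76 and 0.62 for replicates 1 to 4. The numbers were therefore treated as pairs, which no label states.

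Seed matches were searched in the longest GENCODE M21 3′ UTR of transcripts typed as protein-coding, a limit set after first site counts were seen. The file lists RefSeq transcripts, whose 3′ UTRs may differ. Of 24067 gene IDs, 23987 were in the RefSeq table of gene names, and 2 of 158 symbols that were missing or turned into dates could not be restored from it.

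Alternatives were another pseudocount, other filters, centring, quantile normalization, the block and left-out libraries. Named genes were Thtpa, Slc19a2, genes sharing their exons, all genes of the first 3 lists, up to 4 passing genes of each other list or else the 2 of highest mean, and the 3 genes most correlated with each member. Of genes these rules would name, 3 are not reported here. They were taken out of the lists after their values were seen and enter no count of a list. Tested on simulated data (11612 genes, miR-204 minus miR-Ctrl), the fit without the block found 65% of 1.5-fold and 83% of 2-fold changes with 0 false calls. With the block it found 90% and 96%, with 7 false calls. The simulation kept the observed deviations shared by libraries of equal number, so the better recovery with the block was built in. Changes were planted only in genes above a set level, with no shift common to all genes. The rates do not hold for low genes and do not test the choice of the block.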

Additional observations from a re-analysis of the deposited data

Results flagged for a closer look

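In 7 of 48 groups of 4 libraries, over 24 genes, 1 library stood far from the other 3 of its group by Dixon's test. Chance flags about 1 in 20 groups if they are independent, but these share the same 8 libraries, so the 2 shares cannot be compared. No such share was taken over all tested genes. Both replicate 2 libraries lay above the other 6 in 30.5% of all tested genes. All 7 were replicate 2 libraries, and 6 of the 7 were high. For Bckdhb these were the miR-Ctrl library, with 53.8 FPKM, and the miR-204 library, with 49.7. For Bckdha they had 33.4 and 29.7 FPKM. For Dld the miR-204 library had 40.4 FPKM, while the others of its group lay between 32.2 and 33.1. For Pdhb it had 44.5 FPKM, beside 43.0 to 43.2. For Nmrk1 the miR-Ctrl library was low, with 2.88 FPKM beside 3.28 to 3.30. Slc19a2 and Thtpa had no such library.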

How the results depend on the processing

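Under 23 alternatives the difference of Slc19a2 stayed between 0.35 and 0.45 and that of Thtpa between −0.13 and −0.024. Slc19a2 passed without the block only with centred libraries and passed in all 6 fits with the block, and Thtpa passed in none of the 24 fits. For the 34 other genes around thiamine, the count of 0 higher became 2 with the replicate block and 10 with the block and without replicate 2 (0 with the block and without replicate 1, 3 or 4), and the count of 0 lower became 2 with the block and centred libraries. Over all tested genes 3 were higher and 21 lower. These counts became 0 and 9 with no filter, 8 and 55 with centred libraries, 7 and 66 with quantile normalization, 1436 and 329 with the block, and 579 and 502 with the block and centred libraries. Without single libraries they were 0 to 4 and 1 to 16, and without both libraries of a number 0 to 2 and 0 to 16. With the block and without replicates 1, 2, 3 and 4 in turn, 137, 2828, 264 and 88 were higher and 93, 535, 153 and 82 lower.

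Of 30 other named genes, 11 changed sign under an alternative, in none of these cases past the threshold. Another form of dependence was a gained call: 15 of the 30 passed under some alternative but not in the first fit. Only 4 of the 30 kept both sign and call under all alternatives. The counts over all tested genes moved as well, as given above. With centred libraries, with or without the block, Slc19a1 was at −0.046, Slc35f3 at −0.040 and Dlst at −0.0033, and with quantile normalization they were at −0.057, −0.079 and −0.0074. With left-out libraries, the block included, the ranges were −0.029 to 0.074 for Slc19a1, −0.16 to 0.21 for Slc35f3, −0.016 to 0.23 for Ogdhl, −0.15 to 0.0035 for Dhtkd1, −0.12 to 0.13 for Bckdha, −0.30 to 0.30 for Bckdhb, −0.052 to 0.030 for Ilvbl, −0.079 to 0.032 for Dld, −0.098 to 0.012 for Taldo1 and −0.19 to 0.0042 for Zfp566. In the fits with the block and without a number, the changed signs were −0.023 for Slc19a1, 0.0094 for Dld and 0.0042 for Zfp566 without replicate 1, −0.031 for Slc35f3, 0.027 for Bckdha, 0.019 for Bckdhb and 0.0094 for Ilvbl without replicate 2, 0.0019 for Dld without replicate 3, and −0.042 for Slc35f3 and 0.018 for Dld without replicate 4. The causes were not tested. The count of list genes with a 7mer or 8mer, members included, was 20 of 64 with the longest 3′ UTRs and with those of all coding transcripts. By the steps between low FPKM values, replicate 2 was estimated to be less deep in both groups, which may limit its low values. Read totals are not given.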
